A study of Rattus norvegicus with 3 samples.

Results

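The pore-forming subunits of voltage-gated calcium channels were read in rat hippocampus after long-term dosing with Q808. The members are 8 genes, chosen by symbol through their gene identifiers: Cacna1a, Cacna1b, Cacna1c, Cacna1d, Cacna1e, Cacna1g, Cacna1h and Cacna1i. All 8 had a row among the 18560 genes of the largest count table. The study sequenced hippocampal RNA from 3 samples in 1 group, healthy wild-type rats that had Q808 by oral gavage over 28 days. Q808, a code name, stands for a candidate antiseizure compound. The labels used here give no dose, age or sex, do not say that each sample is a separate animal, and include no untreated group. No value below measures an effect of Q808.

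Voltage-gated calcium channels open on depolarization and let calcium into the cell, where it triggers transmitter release, shapes firing and signals to the nucleus. The pore-forming alpha1 subunit fixes the current type, and auxiliary alpha2delta and beta subunits bring most high-threshold channels to the membrane. Channels of the P/Q, N and R types (the Cav2 family) serve mainly transmitter release and dendritic calcium entry, L-type channels (Cav1) couple activity to gene expression, and T-type channels (Cav3) open near the resting potential and promote burst firing. Both T-type channels and the alpha2delta subunit are targets of established antiseizure drugs.

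Only replicate 2 held rows for the members. Its table had 15417009 counts, while the tables of replicates 1 and 3 covered the first 12 and 307 genes of the same alphabetical order and ended before the first member. Each level below is therefore from 1 library, with no replicate check, no SD and no test. The 95% intervals cover only the counting error of independent reads. The reads carry no molecular identifiers and may be copies of each other, so the intervals may be too narrow. Levels are CPM, counts scaled to the library total, and are not corrected for transcript length, because no transcript lengths were used here. Each order or ratio is one of reads, and the gene with more counts could hold fewer transcripts if its counted length were longer by more than the ratio given. The count column is headed Con_Q, a prefix with no stated meaning, and the group was taken from the sample labels.

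All 8 members had at least 10 counts, against a background of 77.0% of the 18560 genes. At least 100 CPM was reached by 6 members, against 13.1% of all genes. The median over the 8 members was 127 CPM, beside 25.2 CPM over the genes with at least 10 counts and 12.7 CPM over all genes of the table. Together the members held 20655 counts, or 0.134% of the library.

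Among the Cav2 genes of the release machinery and dendrites, the R-type gene led. Cacna1e, which encodes Cav2.3, had 6785 counts (95% exact Poisson interval 6624 to 6948), which is 440.1 CPM and rank 321 of all genes. Cacna1a, which encodes the P/Q-type Cav2.1 that drives fast release at many central synapses, had 3422 counts (3308 to 3539), or 222 CPM. Cacna1b, which encodes the N-type Cav2.2 of presynaptic terminals, had 2013 counts (1926 to 2103), or 130.6 CPM. Cacna1e thus had 1.98 times the counts of Cacna1a (exact counting interval 1.90 to 2.07) and 3.37 times those of Cacna1b (3.21 to 3.54). Its counts were also 1.25 times those of Cacna1a and Cacna1b together (1.20 to 1.29).

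The L-type genes were read at nearly equal levels. Cacna1c, which encodes Cav1.2, the main L-type channel of brain and also of heart and vessel muscle, had 1893 counts (1809 to 1980), or 122.8 CPM. Cacna1d, which encodes Cav1.3, an L-type channel that opens at lower voltages, had 1755 counts (1674 to 1839), or 113.8 CPM. The ratio of Cacna1c to Cacna1d was 1.08 (1.01 to 1.15). The remaining L-type genes were near 0 in the same table. Cacna1f, the Cav1.4 gene of retinal photoreceptors, had 1 count, and Cacna1s, the Cav1.1 gene of skeletal muscle, had 0 counts. A count of 0 was taken to allow 3 counts, or 0.195 CPM.

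The T-type genes were uneven. Cacna1h, which encodes Cav3.2, had 2632 counts (2532 to 2734), or 170.7 CPM, and stood in the third place among the 8 members. Cacna1g, which encodes Cav3.1, had 1108 counts (1044 to 1175), or 71.9 CPM. Cacna1i, which encodes Cav3.3, had 1047 counts (984.5 to 1112), or 67.9 CPM. The counts of Cacna1h were 2.38 times those of Cacna1g (2.21 to 2.55) and 2.51 times those of Cacna1i (2.34 to 2.70). Cacna1g and Cacna1i had the fewest counts of the 8 members, and Cacna1i, the lower of them, still ranked above 80.5% of the genes in the table.

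**Figure D1:**
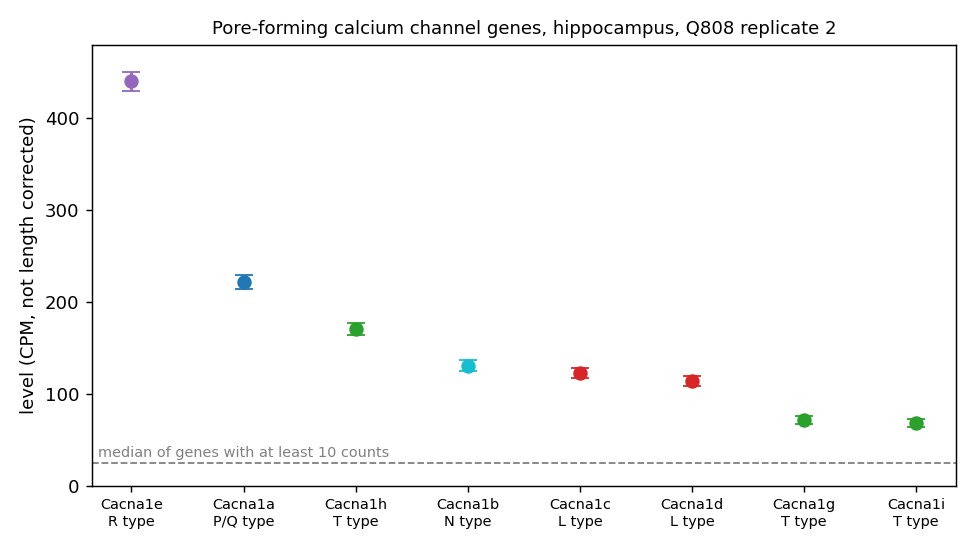
Level of each member in replicate 2 (vertical axis, CPM without length correction), ordered by level and coloured by current type; points are the values and bars the 95% exact Clopper-Pearson counting intervals. Cacna1e stands alone at 440.1 CPM, the members from Cacna1a to Cacna1d lie between 222 and 113.8 CPM, and Cacna1g and Cacna1i lie at 71.9 and 67.9 CPM, all above the dashed median of 25.2 CPM over genes with at least 10 counts.

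**Figure D2:**
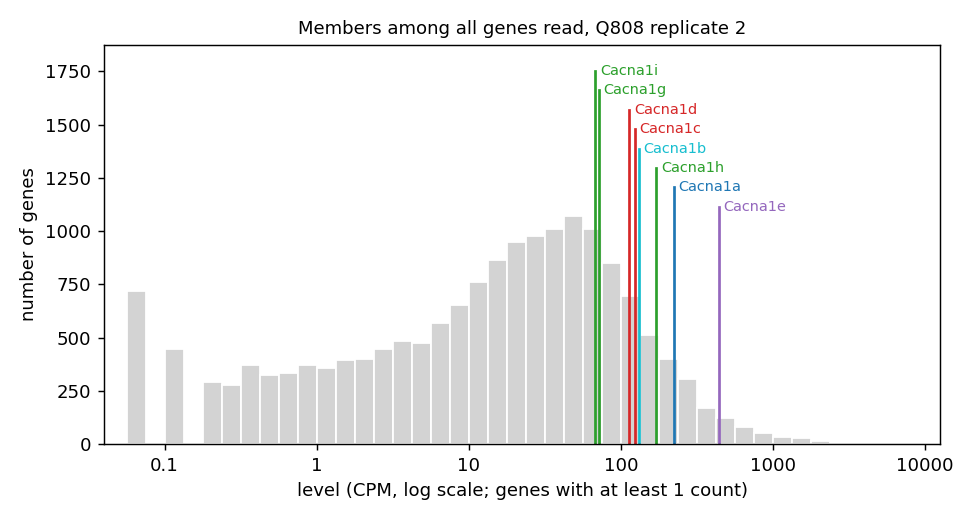
Number of genes (vertical axis) by level in replicate 2 (horizontal axis, CPM on a log scale, genes with at least 1 count), with a line for each member coloured by current type; line heights only separate the names. All 8 members lie in the upper part of the distribution, from Cacna1i at 67.9 CPM to Cacna1e at 440.1 CPM.

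Summed by current type, the R type took the largest share of the members' counts and the N type the smallest. The R type held 32.9% (exact Clopper-Pearson interval 32.2 to 33.5) through Cacna1e alone. The 3 T-type genes held 23.2% (22.6 to 23.8), of which Cacna1h supplied 12.7%. The 2 L-type genes held 17.7% (17.1 to 18.2), the P/Q type 16.6% (16.1 to 17.1) and the N type 9.75% (9.35 to 10.2). The L-type sum was 1.07 times the P/Q-type count (1.02 to 1.12), and the T-type sum was 1.31 times the L-type sum (1.26 to 1.37). By family, the 3 Cav2 genes held 59.2%, the 3 Cav3 genes 23.2% and the 2 Cav1 genes 17.7%. The 5 high-threshold channel genes had 3.32 times the counts of the 3 T-type genes (3.21 to 3.42). These sums are not corrected for the number of genes.

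**Figure D3:**
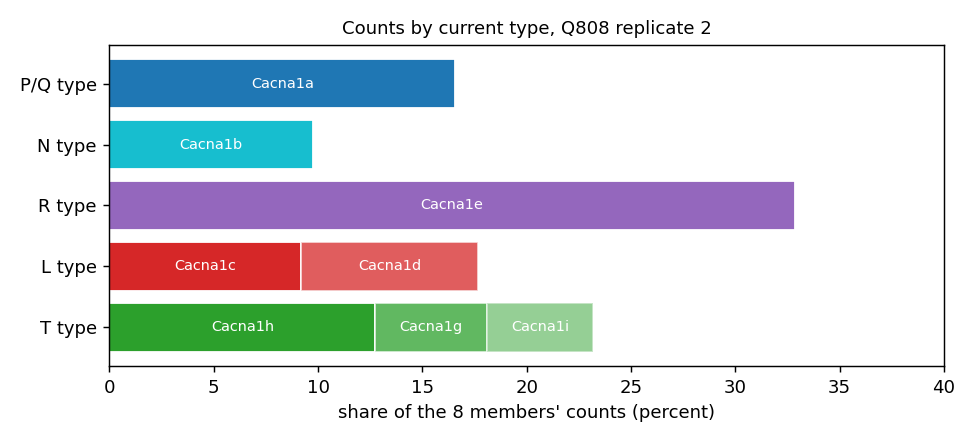
Share of the 8 members' counts in replicate 2 (horizontal axis, percent) for each current type, with the bar divided by gene. Cacna1e alone makes the longest bar at 32.9%, and the T-type bar of 23.2% is mostly Cacna1h.

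No second library gave the spread of the members themselves, so the shared genes of replicates 3 and 2 served as a yardstick. Of these, 59 genes had mean counts within the members' range. The ratio of 2 such genes changed between the libraries by a median of 1.09-fold, and by 1.28-fold at the 90th percentile of 1711 gene pairs. Among the 28 pairs of members, 26 had a counting interval that left out 1, and 24 had a ratio above 1.28. The pairs that stayed below it were Cacna1b with Cacna1c, Cacna1b with Cacna1d, Cacna1c with Cacna1d, and Cacna1g with Cacna1i. The order of the members in counts thus fell into steps, with Cacna1b, Cacna1c and Cacna1d on one and Cacna1g and Cacna1i on the lowest. Cacna1a over Cacna1h, at 1.30, and Cacna1h over Cacna1b, at 1.31, lay just above 1.28. At the stricter 95th percentile of 1.48, 21 pairs lay above, and among the 7 neighbours in the order only Cacna1e over Cacna1a and Cacna1d over Cacna1g (1.58) did. The 1711 pairs are not independent, because each of the 59 genes enters many of them, and the upper percentiles rest on the few genes that changed most. The yardstick comes from other genes and is a description, not a test.

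**Figure D4:**
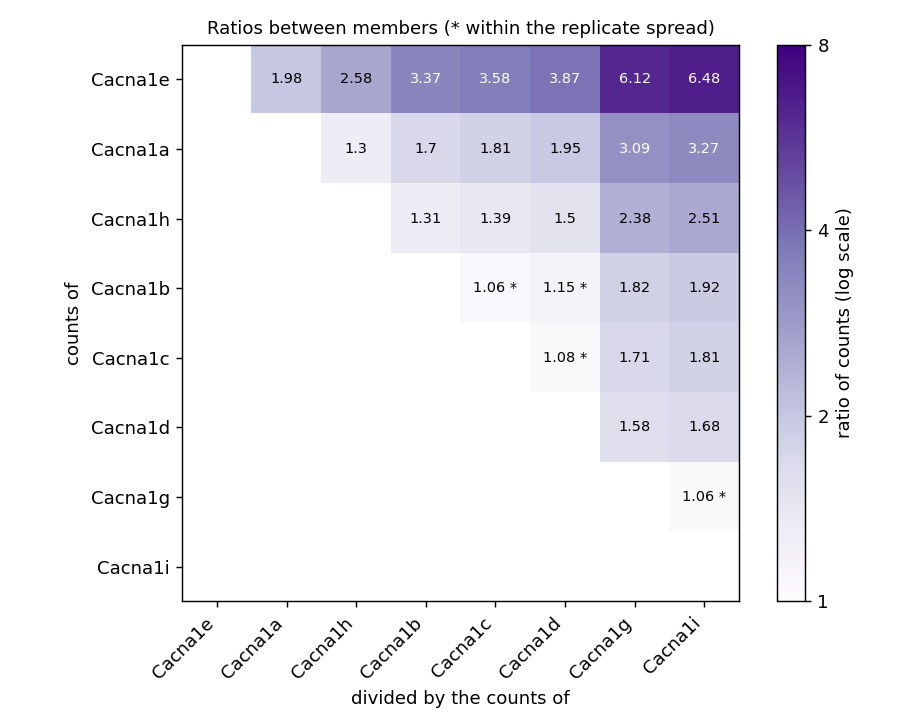
Ratio of the counts of the gene in each row to those of the gene in each column in replicate 2, with colour on a log scale; an asterisk marks a ratio at or below 1.28, the 90th percentile of the change of a gene ratio between replicates 3 and 2. The Cacna1e row runs from 1.98 to 6.48, and the asterisks mark 4 pairs among Cacna1b, Cacna1c and Cacna1d and of Cacna1g with Cacna1i.

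Sequence before the annotated gene start was at hand for 5 members in the RefSeq promoter table of assembly GRCr8: Cacna1a, Cacna1b, Cacna1c, Cacna1d and Cacna1e. CG dinucleotides, which are dense in the promoters of many broadly active genes, were counted in the 250 bases before that start. The windows of Cacna1e and Cacna1a are shown because these members had the most counts, and that of Cacna1d because it held the most CG dinucleotides. All 3 lie on the minus strand, at chr13:69444811-69445060 for Cacna1e, chr19:40650469-40650718 for Cacna1a and chr16:5527550-5527799 for Cacna1d, and each is written 5′ to 3′ with every CG in capitals.
Cacna1e: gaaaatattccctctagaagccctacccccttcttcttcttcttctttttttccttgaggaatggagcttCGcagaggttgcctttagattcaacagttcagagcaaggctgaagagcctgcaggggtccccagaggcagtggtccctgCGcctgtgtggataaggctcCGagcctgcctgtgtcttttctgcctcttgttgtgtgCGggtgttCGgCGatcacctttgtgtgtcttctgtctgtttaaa
Cacna1a: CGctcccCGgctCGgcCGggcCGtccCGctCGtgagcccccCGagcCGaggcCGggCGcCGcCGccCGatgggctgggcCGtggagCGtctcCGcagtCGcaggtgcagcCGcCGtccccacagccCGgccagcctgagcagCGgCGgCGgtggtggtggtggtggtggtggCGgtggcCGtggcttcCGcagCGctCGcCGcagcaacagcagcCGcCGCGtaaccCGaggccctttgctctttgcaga
Cacna1d: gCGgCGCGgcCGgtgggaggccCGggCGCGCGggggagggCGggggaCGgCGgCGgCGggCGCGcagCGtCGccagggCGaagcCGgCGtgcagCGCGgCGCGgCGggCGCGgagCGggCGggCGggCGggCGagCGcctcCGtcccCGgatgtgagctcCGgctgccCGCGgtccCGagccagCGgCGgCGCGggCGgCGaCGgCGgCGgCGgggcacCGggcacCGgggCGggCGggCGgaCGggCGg

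The window of Cacna1e held 6 CG dinucleotides, close to the median of 5 over 33465 promoters, and was 51.2% G or C. That of Cacna1a held 34, and that of Cacna1d held 56, more than 99.99% of promoters. Cacna1b had 28 and Cacna1c had 3. The order of CG content therefore differed from the order of counts over these 5 genes, with Cacna1e first in counts but behind Cacna1d, Cacna1a and Cacna1b in CG dinucleotides. The GC box GGGCGG, searched on both strands, occurred 9 times for Cacna1d, 3 times for Cacna1b and 1 time for Cacna1a, and 30.5% of all windows held it. Neither TATAAA (12.9% of all windows) nor TGACGTCA, the cyclic AMP response element (1.59%), was among the letters of these 5 windows. A match or its absence is a property of these letters alone. The start used in the table is that of an annotated transcript, and which start these samples used was not tested.

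Partner genes of the channels were read in the same library. The background for each number of detected genes is again 77.0% of the 18560 genes. The alpha2delta genes, whose products raise channel number at the membrane, had 3 of 4 members with at least 10 counts and a median of 139 CPM over those 3. Cacna2d1 had 287 CPM and Cacna2d3 had 139 CPM, while Cacna2d4 had 4 counts. All 4 genes for beta subunits, which bind the inner side of high-threshold channels, were detected, and their median was 161 CPM. Cacnb3 had 207 CPM and Cacnb1 had 179 CPM. Of 8 gamma genes, several of which encode AMPA receptor partners rather than channel subunits, 7 were detected. Cacng8 had 251 CPM and Cacng7 had 140.1 CPM, and the muscle gene Cacng1 had 2 counts.

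Genes that place or tune the channels were also present. All 12 release site genes were detected, against 77.0% of all genes, and had a median of 186 CPM, with the SNARE gene Snap25 at 2479 CPM. Of 19 channel regulator genes, 18 were detected, with Camk2b, a calcium-dependent kinase gene, at 1721 CPM. Stac3, an adaptor of the muscle L-type channel, had 4 counts. All 8 genes of signalling to the nucleus were detected (median 39.7 CPM), with the CREB coactivator gene Crtc1 at 3854 counts and the kinase gene Camk4 at 169 CPM. The counts of near-identical genes in these lists are uncertain, because reads could be split between copies.

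Other routes of calcium were read as well. Of 11 other calcium entry genes with a row, 9 were detected, near the background of 77.0% of all genes. They were led by the store-operated channel gene Orai2 (176 CPM) and the sodium leak channel gene Nalcn (149.5 CPM). The sperm channel genes Catsper4 and Catsper3 had 1 and 0 counts. The 16 store and clearance genes, all detected, had a median of 214 CPM. Atp2a2, the calcium pump gene of the endoplasmic reticulum, had 1012 CPM and Atp2b1, a plasma membrane pump gene, had 628 CPM. Of 8 calcium-activated potassium channel genes with a row, 6 were detected, also near that background, and the median over these was 25.3 CPM. Kcnmb4 had 59.0 CPM and Kcnma1, the pore of the BK channel, had 38.7 CPM, while Kcnmb1 and Kcnn4 had 4 and 7 counts.

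**Figure D5:**
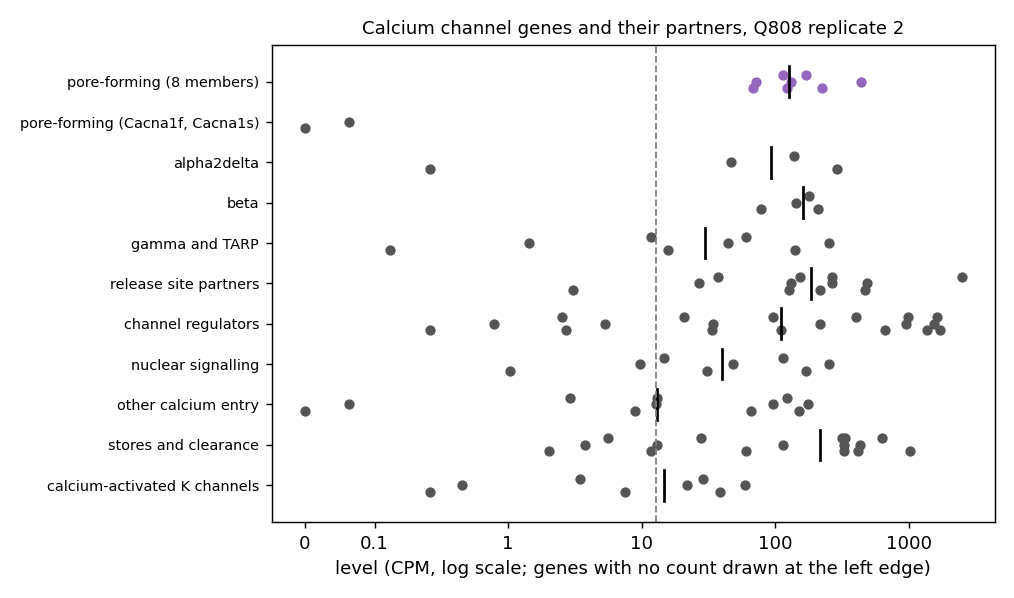
Level of each gene in replicate 2 (horizontal axis, CPM on a log scale, with genes of no count at the left edge) for the 8 members and the partner lists; each point is a gene, the black bar is the median over all genes with a row (not drawn for the list of Cacna1f and Cacna1s) and the dashed line is the median of 12.7 CPM over the whole table. The 8 members span 67.9 to 440.1 CPM, the other pore-forming genes Cacna1f and Cacna1s lie at 1 and 0 counts, and the lists of alpha2delta, gamma, regulator, other entry and potassium channel genes each reach below 1 CPM.

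The files' own annotation gives what the members share beyond the symbol. All 8 carry 9 Gene Ontology terms in common, among them membrane depolarization during action potential, and 2 KEGG pathways, calcium signaling and MAPK signaling. The term for high voltage-gated calcium channel activity is given to the 5 genes of the P/Q, N, L and R types. The term for low voltage-gated activity is given to the 3 T-type genes and also to Cacna1e, the R-type gene. Among the members, only the 3 T-type genes carry the term voltage-gated sodium channel activity. The GABAergic synapse pathway holds Cacna1a, Cacna1b, Cacna1c and Cacna1d, and not Cacna1e, which had the most counts.

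The tissue was checked against markers that could bear on single members. All 5 neuron markers were detected, with a summed level of 6116 CPM, and the highest markers of hippocampal fields were Prox1 of granule neurons (136 CPM), Mpped1 of CA1 (232 CPM) and Cpne4 of CA3 and CA2 (276 CPM). The lowest marker of each field was Dsp of granule neurons at 77 counts, Fibcd1 of CA1 at 39 counts and Iyd of CA3 at 0 counts. The remaining markers of these fields lay between 59.7 and 190.2 CPM. Over all 16 marker lists, 58 of 61 genes were detected, against 77.0% of all genes. Thalamic neurons are known for T-type current, and the 4 thalamus markers summed to 72.1 CPM, led by Slc17a6 at 26.1 CPM. Cerebellar neurons are rich in P/Q-type channels, and the 4 cerebellum markers summed to 29.0 CPM, led by Cbln1 at 17.3 CPM, with Pcp2 and Gabra6 at 8 and 4 counts. Smooth muscle uses Cacna1c, and the 4 mural markers summed to 50.1 CPM, led by Pdgfrb at 22.1 CPM. All lists not named so far had higher sums than the thalamus markers. Oligodendrocyte markers summed to 9362 CPM, above the neuron sum, led by Mbp at 5578 CPM, and astrocyte markers to 2812 CPM. Choroid markers summed to 185 CPM, led by Ttr at 176 CPM, and striatum markers to 121 CPM, led by Ppp1r1b at 105 CPM. The sums were 624 CPM for interneurons, 194 for blood, 164 for endothelium, 112 for microglia and 86.3 for oligodendrocyte precursors. The part of any of these cells in the members' levels was not tested. In bulk tissue, fewer cells of a type and less RNA per cell cannot be told apart.

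Sequence shared between members and genes that overlap them may also bear on the counts, because the strand setting and the handling of reads with several matches were not stated in what was read here. By the GRCr8 table, Dcp1b overlaps the span of Cacna1c and had 223 counts, against the 1893 counts of Cacna1c. Tpsg1 overlaps the span of Cacna1h and had 14 counts, against the 2632 counts of Cacna1h. A further 9 genes without a row in the count table overlap members, 8 long non-coding RNA genes over Cacna1a, Cacna1c, Cacna1d and Cacna1i and 1 pseudogene over Cacna1e, so their share of reads is not known.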

How the data were processed

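The authors deposited raw, unnormalized counts for each gene, 1 file to a sample. The submitters' processing notes list SAMtools, StringTie, Bowtie2, DESeq, HTSeq, Cufflinks, HISAT2 and Trimmomatic with neither version nor role, and a genome build was not given in the sources used here. Gene symbols came from the RefSeq table of GRCr8, by gene identifier (1045 of 18560 identifiers unmatched). From the deposited counts of replicate 2, levels in CPM and their 95% exact Clopper-Pearson intervals were computed (scipy 1.17.1), and count ratios with exact binomial intervals. A gene was called detected at 10 counts. A count of 0 was taken to allow 3 counts, a fixed value and not the end of an exact interval. Replicates 3 and 2 were scaled over the 243 genes that had 10 counts or more in both by edgeR 4.0.16 (TMM) or by DESeq2 1.42.0 size factors, with 0.5 added to each count. The calculations of the intervals and of the spread were tested on simulated counts without copied reads, which checks the arithmetic and not its fit to these data.

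The design assumed coding lengths, which were not used here, so all comparisons are in counts. The members and the 26 gene lists were chosen with earlier results of these data known. Named are all members, Cacna1f and Cacna1s, the 2 highest genes and those under 10 counts of each functional list, and markers with the most counts in a list. Dcp1b, Tpsg1, Pcp2, Gabra6, Dsp, Fibcd1 and Iyd were named after their values were seen. Part of what this rule names is not reported here. Genes most like a member in pattern were not sought, since 1 sample held the members.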

Additional observations from a re-analysis of the deposited data

How the results depend on the processing

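With the 100 highest genes left out of the library total, every member's level is higher by the same factor, so their order is fixed: Cacna1e had 523 CPM, Cacna1a 264, Cacna1h 203, Cacna1b 155, Cacna1c 146, Cacna1d 135, Cacna1g 85.4 and Cacna1i 80.7 CPM. Over every gene with a row, instead of those with at least 10 counts, list medians were 92.6 CPM for alpha2delta, 29.9 CPM for gamma, 109 CPM for channel regulators, 13.1 CPM for other calcium entry and 14.8 CPM for calcium-activated potassium channel genes, which is lower by construction. The number of detected members was 8 at minimums of 1 and 50 counts. Adding Cacna1f and Cacna1s changed no share by more than its counting interval. The change of a gene ratio between replicates 3 and 2 does not depend on the scaling and was 1.28-fold with DESeq2 size factors and with no minimum. The median change of a single gene was 1.12-fold with TMM, 1.13-fold with DESeq2 size factors and 1.16-fold with no minimum. The use of gene ratios as the yardstick and its 95th percentile were chosen after seeing the data. Leaving out replicate 1 or 3 could change no member's level, since neither held a member, and leaving out replicate 2 ends every one. Without replicate 3 the yardstick of gene ratios cannot be computed. Transcript and coding lengths, planned as alternatives, were not run. No paired analysis was possible because the series has a single group here.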

Other observations

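The KEGG calcium signaling pathway, as the files annotate it, had 179 genes in the table of replicate 2. The 8 members held ranks 17 to 58 by counts among them, with Cacna1e at 17, Cacna1a at 31, Cacna1h at 37 and Cacna1i at 58. Among the genes ahead of all members were the kinase gene Camk2b at 1721 CPM and the calcineurin genes Ppp3ca and Ppp3r1 at 1539 and 1361 CPM.

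The files assign Cacna1e to 3 KEGG pathways, the fewest of the 8 members, although it had the most counts. Cacna1d, sixth in counts, is assigned to 30 pathways and Cacna1c to 29. The 3 pathways of Cacna1e are calcium signaling, MAPK signaling and type II diabetes mellitus, and none is a synapse pathway.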
